A study of Mus musculus with 12 samples.

Results

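The 44 genes described here encode the cytoskeleton, its adhesion sites and proteins that epithelial cells often express more of in culture, and they were followed in primary mouse hepatocytes exposed to FAC with or without a scavenger of reactive oxygen species (ROS). They were named in a list that was drawn up with earlier results of these data known, and of that list members were selected on their counts, by a minimum of 10 unstranded counts in 3 libraries. The choice therefore depended in part on the changes described here, so the members' shares called, set beside those of all genes, are a description and support nothing. All 44 of 44 listed genes passed, among 13815 of the 55487 gene identifiers that do so, and all 44 were also among the 13535 genes tested. The members nearest the limit were Tagln, which reached 10 counts in 4 libraries, 3 of them FAC libraries, and Krt7, which reached it in 5 libraries, 3 of them FAC libraries. Tagln had 2 to 16 counts per library and Krt7 had 3 to 37. Anxa1 reached 10 counts in 10 libraries, with 8 to 28 counts. The other 41 members reached it in all 12 libraries.

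The 12 libraries form 4 groups of 3. Control hepatocytes received neither a scavenger nor FAC, an abbreviation that the labels leave unexplained. FAC hepatocytes received FAC alone. Lip-1+FAC hepatocytes were given liproxstatin-1, labelled a scavenger of lipid ROS, on day 2 of culture and FAC afterwards, and MT+FAC hepatocytes were given Mito-TEMPO, labelled a scavenger of mitochondrial ROS, on the same day and FAC afterwards. No group had a scavenger without FAC, so what a pretreatment does to these genes by itself was not measured. The strain, age and number of animals, the doses and the length of exposure are not given in the sources used here, nor is it stated whether replicates are separate cultures. No freshly isolated liver cells and no time series were measured, so the working name of the list, dedifferentiation in culture, describes where the genes come from and was not tested. The cells are hepatocytes by their markers, since 10 of 10 hepatocyte markers, among them Alb and Hnf4a, were detected and summed to between 15609 and 20731 CPM (counts scaled to a common library size).

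Hepatocytes in the liver are polarized epithelial cells with a cortical actin belt and a keratin network built from a single pair, Krt8 and Krt18. When they are plated, they flatten, form stress fibres (bundles of actin and non-muscle myosin II anchored at focal adhesions) and lose part of their specialized programme, a change called dedifferentiation. Many genes of the contractile cytoskeleton are regulated by serum response factor (SRF), whose coactivators of the myocardin-related family are held by unpolymerized actin, and several matrix and adhesion genes are targets of the YAP and TEAD proteins or of AP-1. Krt7, Krt19, Sox9 and Spp1 are better known from bile duct cells, and hepatocytes can express them after injury.

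Gene-assigned counts were 22991598 to 31683376 per library, apart from FAC replicate 2 with 52529278, whose file is marked as combined. The share of listed reads assigned to genes differed between the groups, at 78.0% to 79.8% in control, 75.8% to 77.8% in FAC and 80.4% to 81.2% in the pretreated groups, with FAC below and the pretreated groups above control without overlap. Its part in the members' changes was not tested. Control replicate 3 stood apart for the actin genes. Its Actb level was 5475 CPM against 3327 and 3602 CPM in the other control libraries, and its Myh9 level was 201 CPM against 338 and 419 CPM. FAC replicate 3 had the highest level of its group for several members, for example 14.4 CPM of Krt19 against 6.69 and 8.83 CPM. Over the 41 members with 10 counts in every library, Spearman's correlation of a library's log2 deviation from the mean of the other libraries of its group with exonic length was -0.53 in control replicate 3 and -0.46 in FAC replicate 3. It was 0.53 in FAC replicate 2, 0.49 in Lip-1+FAC replicate 3 and -0.35 to 0.42 in the other libraries. These are descriptions across genes, which are not replicates, and the part of length in the calls that those libraries decide was not tested. In all, the members took 2.03% to 2.26% of the gene-assigned counts in control, 2.36% to 2.60% in FAC, 1.57% to 1.74% in Lip-1+FAC and 1.79% to 2.09% in MT+FAC. The FAC range lay above the control range and the Lip-1+FAC range below it, and the MT+FAC range overlapped control.

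Because members that moved together are described below, the promoters that RefSeq gives were searched for 3 short motifs, and the stretches that hold a match are printed so that a reader can see them. Windows of 250 bases before to 50 bases after the start, on the build GRCm38.p6, were found for 33 of the 44 members. Actb, Tagln, Krt19, Tubb2b, Tubb6, Anxa3, S100a10, Lgals1, Thbs1, Akap12 and Sox9 had no entry. The CArG box, the motif of SRF, was found in 5 of 33 members (15.2%) and in 1.81% of the 27025 genes with a window, counted on both strands. The members were Actg1, Cnn2, Myl9, Vcl and Anxa5, and the match in Anxa5 lies after the start. The AP-1 motif TGAGTCA, whose reverse complement is TGACTCA, was found in 5 members (15.2%) and 5.95% of all genes. These were Zyx, Anxa2, Emp1, Myl12a and S100a11, with a pair of matches in S100a11. The TEAD motif GGAATG, with its reverse complement CATTCC, was found in 7 members (21.2%) and 16.6% of all genes. No match overlapped one of another motif. A match describes letters in the window and does not show that a factor bound there. The stretches below are 5′ to 3′ on the strand of the gene, were cut where an annotated exon begins, and carry the CArG box in capitals for Actg1 (chr11:120348543-120348677, minus strand), Cnn2 (chr10:79988350-79988583, plus strand), Myl9 (chr2:156775214-156775419, plus strand) and Vcl (chr14:20929148-20929397, plus strand).
Actg1: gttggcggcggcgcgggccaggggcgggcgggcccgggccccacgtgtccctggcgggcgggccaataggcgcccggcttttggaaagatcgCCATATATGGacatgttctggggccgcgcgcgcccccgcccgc
Cnn2: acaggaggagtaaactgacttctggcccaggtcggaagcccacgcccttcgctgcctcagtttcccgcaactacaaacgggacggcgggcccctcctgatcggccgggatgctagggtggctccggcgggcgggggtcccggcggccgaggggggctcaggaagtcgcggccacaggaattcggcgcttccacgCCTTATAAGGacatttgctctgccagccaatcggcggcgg
Myl9: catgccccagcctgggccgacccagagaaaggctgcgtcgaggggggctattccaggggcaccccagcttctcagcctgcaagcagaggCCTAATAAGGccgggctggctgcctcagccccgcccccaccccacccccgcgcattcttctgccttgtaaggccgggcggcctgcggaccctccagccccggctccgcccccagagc
Vcl: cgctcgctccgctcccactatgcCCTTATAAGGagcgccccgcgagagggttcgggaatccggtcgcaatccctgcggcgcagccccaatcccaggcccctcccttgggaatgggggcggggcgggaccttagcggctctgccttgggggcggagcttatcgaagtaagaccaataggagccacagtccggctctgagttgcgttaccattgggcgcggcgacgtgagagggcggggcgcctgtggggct
In the next set the capitals mark the AP-1 motif. Zyx (chr6:42349706-42349779), Anxa2 (chr9:69453433-69453619) and Emp1 (chr6:135362708-135362903) were called higher in FAC, and S100a11 (chr3:93520246-93520487), shown for contrast, was called in none of the comparisons. All 4 genes lie on the plus strand. By the annotation, Zyx begins at 42349630 and Emp1 at 135362545, so their stretches lie inside the annotated gene, before the RefSeq start. Myl12a, not called in FAC against control, is not printed because its match overlaps an annotated exon.
Zyx: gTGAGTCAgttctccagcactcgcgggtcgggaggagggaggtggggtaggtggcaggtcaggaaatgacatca
Anxa2: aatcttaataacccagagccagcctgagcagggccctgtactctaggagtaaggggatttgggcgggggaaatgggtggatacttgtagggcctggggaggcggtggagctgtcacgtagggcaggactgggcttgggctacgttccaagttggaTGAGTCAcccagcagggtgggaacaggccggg
Emp1: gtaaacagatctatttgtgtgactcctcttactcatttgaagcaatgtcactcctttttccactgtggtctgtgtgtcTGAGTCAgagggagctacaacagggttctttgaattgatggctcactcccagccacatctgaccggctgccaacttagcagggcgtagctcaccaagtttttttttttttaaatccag
S100a11: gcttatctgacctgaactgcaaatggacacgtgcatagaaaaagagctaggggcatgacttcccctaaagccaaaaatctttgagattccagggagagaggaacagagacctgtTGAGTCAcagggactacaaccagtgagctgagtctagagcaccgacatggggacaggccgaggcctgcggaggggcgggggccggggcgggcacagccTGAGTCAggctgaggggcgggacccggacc

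Across the list, keratins, Sox9, Akap12, Emp1, Thbs1 and Lgals3 were higher in FAC than in control, actin genes were not called, and most members were lower in both pretreated groups than in FAC. Lgals1 and Spp1 ran against this and were highest in the pretreated groups, and the rare Anxa1 was called higher in MT+FAC than in FAC. In FAC against control, 17 of 44 members (38.6%) were called higher and 0 lower by the edgeR quasi-likelihood test at an adjusted p under 0.05, where 17.5% of all genes tested were called higher and 19.1% lower. The median log2 fold change of the members was 0.22, against -0.0061 over all genes tested. In Lip-1+FAC against FAC, 30 members (68.2%) were lower and 2 higher, where 19.2% of all genes were lower and 20.7% higher, and the median was -0.66 against 0.00062. In MT+FAC against FAC, 24 members (54.5%) were lower and 3 higher, where 19.7% of all genes were lower and 21.2% higher, and the median was -0.43 against -0.0011. These comparisons share the FAC libraries, so an unusually high FAC library enters each of them. The number called higher in FAC was 11 without FAC replicate 3 and 12 without control replicate 1, and it was 15 or 16 without any other single library of the pair. Over all 13535 genes tested, 2373 were higher in the 12-library fit, 2277 without FAC replicate 3, 2061 without control replicate 1 and 1951 to 2231 without another library. By DESeq2, 16 members were higher and 0 lower, and of all genes 2620 were higher and 2497 lower. At an unadjusted edgeR p under 0.05 the number of members lower was 2 (Cnn3 and Tubb2a).

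**Figure D1:**
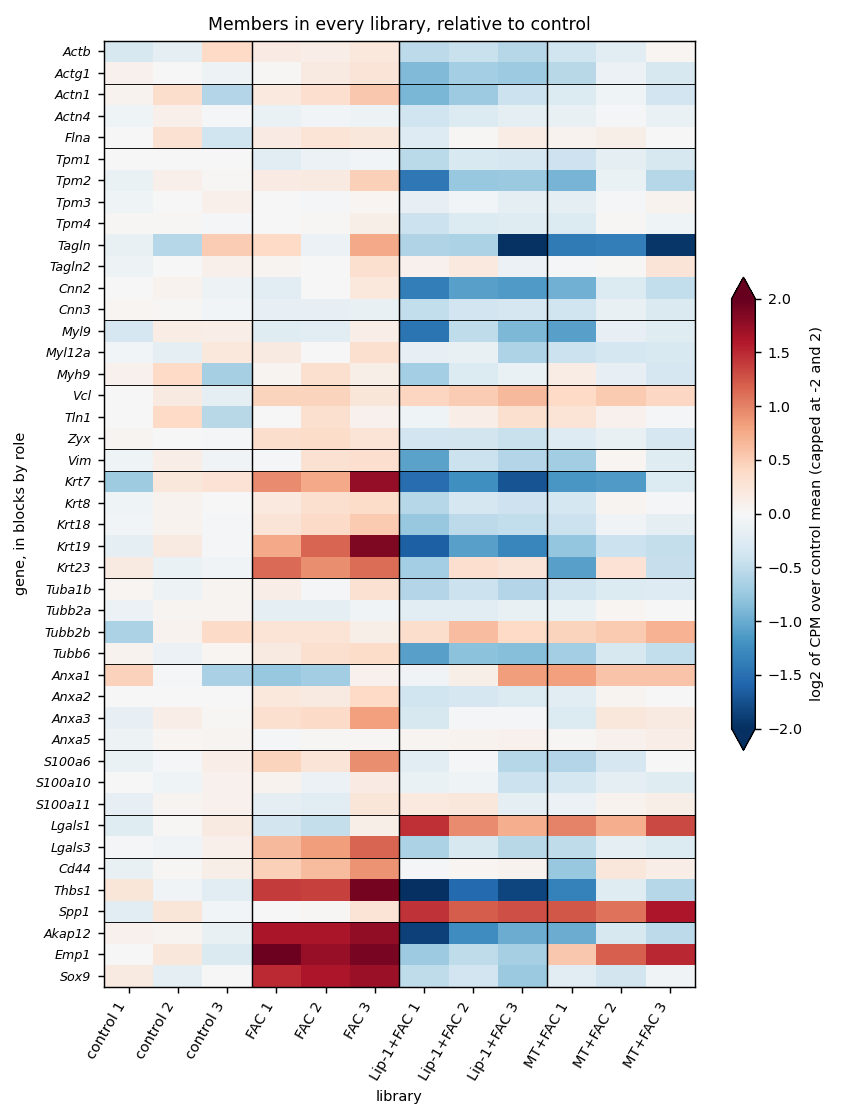
Heat map of the 44 members (rows, in blocks by role) in the 12 libraries (columns), as the log2 of CPM over the control mean, with red above and blue below control. Akap12, Emp1, Sox9 and Thbs1 are red in the 3 FAC libraries, and Lgals1 and Spp1 are red in the 6 pretreated libraries.

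**Figure D2:**
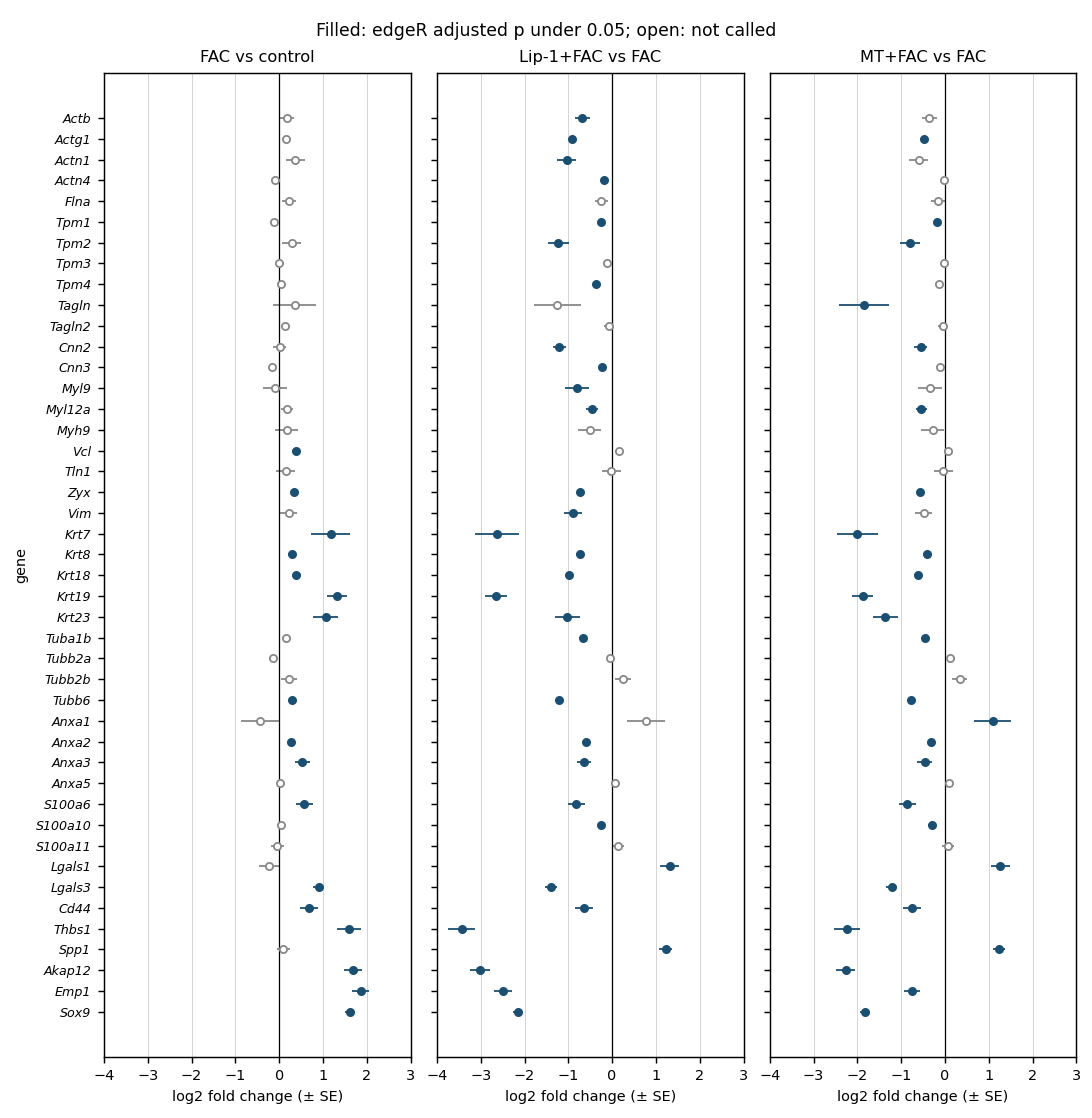
Log2 fold change with its standard error for each member in FAC against control, Lip-1+FAC against FAC and MT+FAC against FAC, with filled points called at an edgeR adjusted p under 0.05. The 16 actin and myosin genes are all open in the first panel, and 11 of them are filled and below 0 in the second.

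Keratins are the intermediate filament proteins of epithelia. All 5 were higher in FAC than in control, where 17.5% of all genes were, and all 5 were lower in each pretreated group than in FAC, where 19.2% (Lip-1) and 19.7% (MT) of all genes were. These counts include Krt7, which reached the count rule mostly through the FAC libraries. Krt8 (ENSMUSG00000049382, chromosome 15, 101996698 to 102004482) and Krt18 (ENSMUSG00000023043, chromosome 15, 102028180 to 102032027) were the most abundant members per length, at 1902 and 2097 CPM per kilobase in control (coordinates here and below are those of GENCODE M21 on GRCm38). Krt18 stood at 2908, 3154 and 2979 CPM in control, 3602, 3949.8 and 4322 CPM in FAC, 1773, 2098 and 2148 CPM after Lip-1 and FAC, and 2233, 2857 and 2635 CPM after MT and FAC. Every FAC library lay above every other library, and every Lip-1+FAC library lay below every MT+FAC library. The mean rose from 3014 ± 127 to 3958 ± 359.9 CPM (SD, n = 3; log2 fold change 0.39, SE 0.09, edgeR adjusted p = 0.00352) and was 2006 ± 204 CPM in Lip-1+FAC (log2 fold change -0.98, SE 0.09, edgeR adjusted p = 9.31e-07) and 2575 ± 316 CPM in MT+FAC (log2 fold change -0.62, SE 0.09, edgeR adjusted p = 8.75e-05). Krt8, its partner, was 3512, 3903 and 3758 CPM in control, 4262, 4648 and 4815 CPM in FAC, 2517, 2941 and 2807 CPM after Lip-1 and FAC, and 2907, 3861 and 3613 CPM after MT and FAC. Its group means had the order of Krt18, with a rise in FAC (log2 fold change 0.30, SE 0.09, edgeR adjusted p = 0.0168), and MT+FAC overlapped control. That call for Krt8 was lost without FAC replicate 2, FAC replicate 3 or control replicate 1, at an edgeR adjusted p of 0.0530 to 0.0716. Of the Krt8 transcript, 51.8% lies in near-identical copies, the largest being Krt8-ps, so its level is uncertain.

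The balance of the pair was followed as well. The ratio of Krt8 to Krt18 was 1.21 to 1.26 in control, 1.11 to 1.18 in FAC, 1.31 to 1.42 in Lip-1+FAC and 1.30 to 1.37 in MT+FAC. FAC lay below control and both pretreated groups above it without overlap, and the pretreated groups overlapped each other. The difference from control was -0.0776 in FAC, 0.140 with Lip-1 and 0.106 with MT. Over 6 comparisons the exact two-sided permutation test gave p = 0.1 for the 5 without overlap, which is the smallest value that 3 against 3 libraries allow, and 0.12 after Benjamini-Hochberg adjustment, so no comparison passed. For MT+FAC against Lip-1+FAC the exact permutation p was 0.4. This ratio was chosen after its values were seen.

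**Figure D3:**
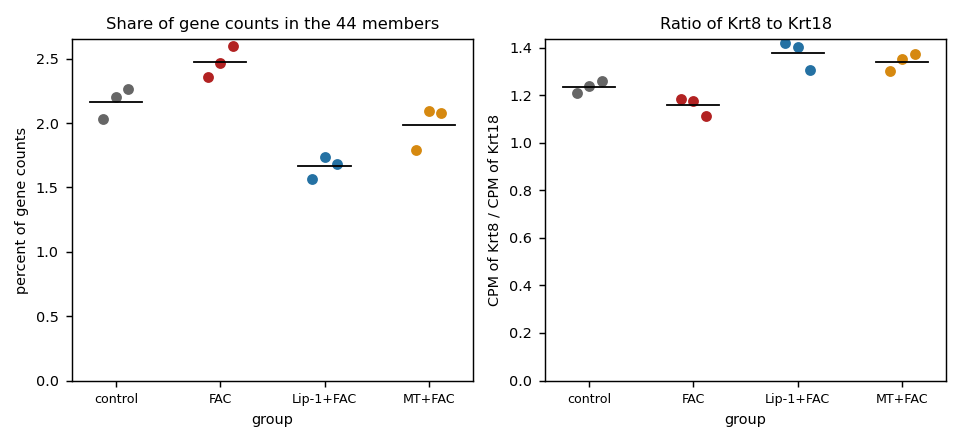
Left, percent of gene-assigned counts held by the 44 members in each library. Right, ratio of the Krt8 to the Krt18 level. Points are libraries and lines are group means (n = 3). FAC has the highest share, up to 2.60%, and the lowest ratio, down to 1.11.

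The keratins that are better known from bile ducts were rare. Krt19 was 3.50, 4.46 and 3.91 CPM in control, 6.69, 8.83 and 14.4 CPM in FAC, 1.27, 1.86 and 1.61 CPM after Lip-1 and FAC, and 2.31, 2.94 and 2.85 CPM after MT and FAC. The 4 groups did not overlap, in the order FAC, control, MT+FAC, Lip-1+FAC, with FAC replicate 3 well above the other FAC libraries. Its log2 fold change 1.32, SE 0.23, edgeR adjusted p = 0.000249 in FAC against control was followed by -2.65 (SE 0.26) in Lip-1+FAC and -1.88 (SE 0.24) in MT+FAC, each against FAC. Krt23, a type I keratin, was 3.16, 2.55 and 2.64 CPM in control against 6.14, 5.31 and 6.02 CPM in FAC (log2 fold change 1.06, SE 0.28, edgeR adjusted p = 0.00730). In the pretreated groups Krt23 was 1.75, 3.50 and 3.34 CPM with Lip-1 and 1.31, 3.39 and 2.03 CPM with MT, overlapping control in each case, with wider spread. Krt7 had at most 1.41 CPM in a library, at 0.419 ± 0.141 CPM in control against 0.975 ± 0.382 CPM in FAC (SD, n = 3). Its rise in FAC (log2 fold change 1.18, SE 0.44, edgeR adjusted p = 0.0444) failed in 5 of 6 fits that left out a library, at edgeR adjusted p-values of 0.0509 to 0.183, FAC replicate 2 being the exception. Its difference adds little because of how it reached the rule.

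**Figure D4:**
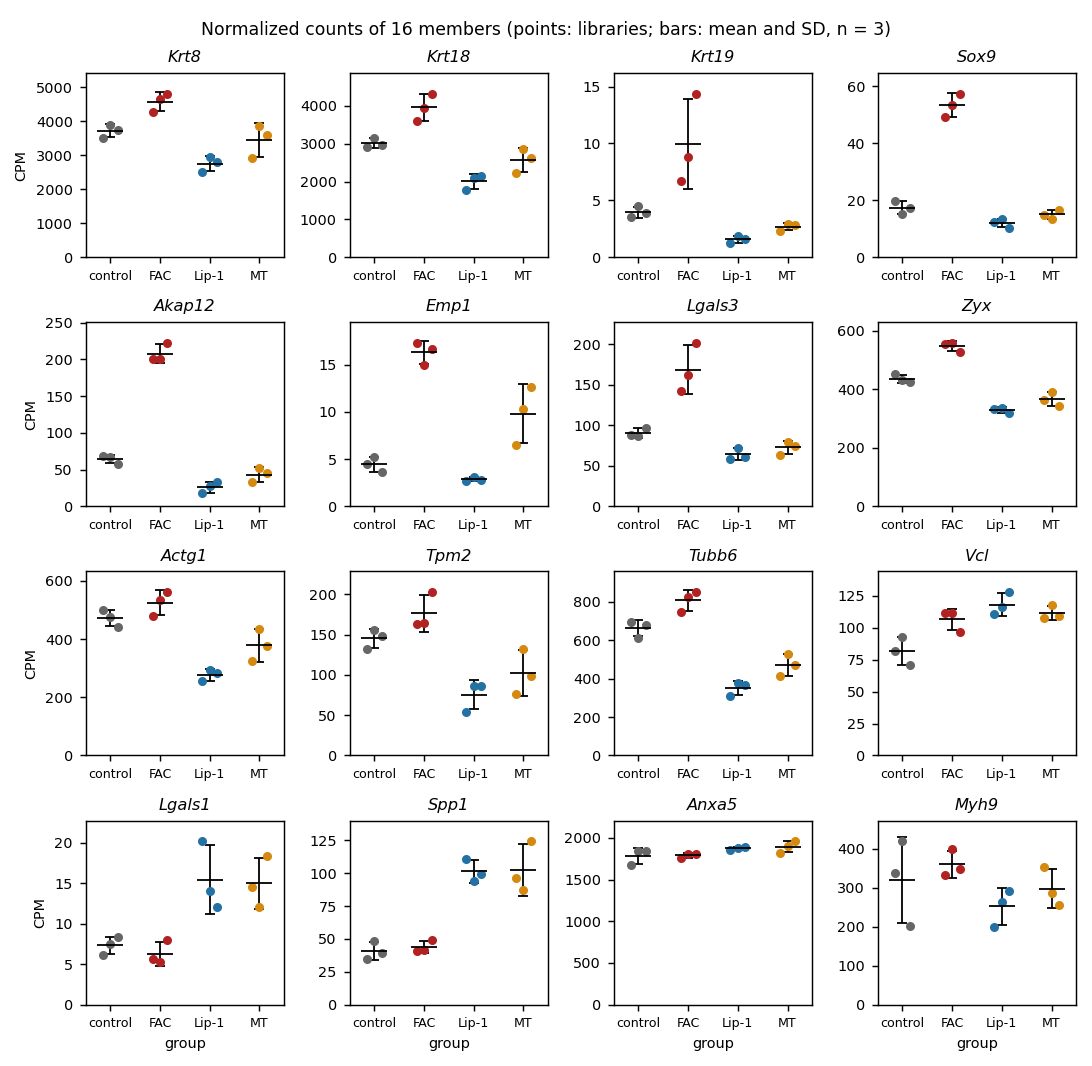
CPM of 16 members in each library, with points for libraries and bars for the mean and SD (n = 3), each panel with its own axis from 0. FAC is the highest group for Krt18, Krt19, Sox9, Akap12, Emp1 and Lgals3, the pretreated groups are highest for Lgals1 and Spp1, and Anxa5 stays between 1670.1 and 1963 CPM.

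Actin, its binding proteins and myosin form the largest group of roles. None of the 16 actin and myosin genes was called in FAC against control, with log2 fold changes from -0.16 to 0.36, yet 11 of 16 were lower in Lip-1+FAC than in FAC and 6 of 16 in MT+FAC than in FAC, where 19.2% and 19.7% of all genes were lower. Against control itself, 10 of 16 were lower in Lip-1+FAC and 4 of 16 in MT+FAC, where 14.8% and 10.1% of all genes were lower. The cytoplasmic actin Actg1 (ENSMUSG00000062825, chromosome 11, 120345690 to 120348542) was 499.8, 476 and 442 CPM in control, 481, 534 and 562 CPM in FAC, 255, 294 and 285 CPM after Lip-1 and FAC, and 323, 434 and 377 CPM after MT and FAC. Control and FAC overlapped, Lip-1+FAC lay below all other groups, and MT+FAC lay between and below both control and FAC. Actg1 fell by 0.92 on the log2 scale in Lip-1+FAC against FAC (SE 0.09, edgeR adjusted p = 2.67e-06) and by 0.48 in MT+FAC against FAC (SE 0.09, edgeR adjusted p = 0.00100). Its promoter holds a CArG box, printed above, and 57.8% of its transcript lies in near-identical copies. Actb, the other cytoplasmic actin, was 3327, 3602 and 5475 CPM in control, 4633, 4549 and 4783 CPM in FAC, 2888, 3033 and 2774 CPM after Lip-1 and FAC, and 3146, 3515 and 4241 CPM after MT and FAC. It was not called in FAC against control (log2 fold change 0.17, SE 0.17, edgeR adjusted p = 0.483), but without control replicate 3 it was higher in FAC (log2 fold change 0.43, edgeR adjusted p = 0.00219). Its call in Lip-1+FAC against control (edgeR adjusted p = 0.0482) was lost in 4 of 6 fits that left out a library, at 0.0634 to 0.131 without control replicate 3 or any one Lip-1+FAC library.

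Among the actin-binding genes called lower in Lip-1+FAC than in FAC, the largest changes were those of tropomyosin Tpm2 and calponin Cnn2, both found on actin filaments. Cnn2 was 37.1, 38.8 and 34.5 CPM in control, 31.9, 36.7 and 42.6 CPM in FAC, 14.04, 17.4 and 16.7 CPM after Lip-1 and FAC, and 18.9, 30.4 and 26.2 CPM after MT and FAC. The Lip-1+FAC libraries were the lowest 3, and FAC and control overlapped. Cnn2 changed by -1.21 in Lip-1+FAC against FAC (SE 0.15, edgeR adjusted p = 2.02e-05) and by -0.56 in MT+FAC against FAC (SE 0.15, edgeR adjusted p = 0.00760). Tpm2 was 132, 156 and 147.7 CPM in control, 163, 164 and 203 CPM in FAC, 54.2, 85.6 and 86.5 CPM after Lip-1 and FAC, and 76.2, 132 and 98.0 CPM after MT and FAC. Its log2 fold changes against FAC were -1.23 with Lip-1 and -0.79 with MT, and the latter call was lost without FAC replicate 3, MT+FAC replicate 1 or MT+FAC replicate 3 (edgeR adjusted p = 0.0542 to 0.0681). Among the tropomyosins, Tpm1 fell by 0.26 and Tpm4 by 0.36 in Lip-1+FAC against FAC, and Tpm3, 85.4% of whose transcript is shared with Tpm3-rs7, was called in no comparison. Cnn3, the more abundant calponin per length, at 649.9 ± 22.6 CPM in control (SD, n = 3), fell by 0.24 in Lip-1+FAC against FAC. Tpm1 was also lower in MT+FAC than in FAC (log2 fold change -0.18, edgeR adjusted p = 0.0469), a call lost in 4 of 6 fits without a library (edgeR adjusted p = 0.0999 to 0.225 without FAC replicate 2, FAC replicate 3, MT+FAC replicate 1 or MT+FAC replicate 3). Tagln, the smooth muscle relative of calponin known as transgelin, was under 0.6 CPM throughout, and 67.9% of its exonic bases overlap other genes. Its log2 fold change in MT+FAC against FAC was -1.84 (SE 0.57) and counts among the 24 called lower, but Tagln passed the count rule through the FAC libraries, where it is high, so this value adds little. With Lip-1 against FAC it was not called (-1.25, edgeR adjusted p = 0.0757). Summing the 2 stranded columns keeps reads that the unstranded column drops where genes on opposite strands overlap, but credits them to each of those genes. In that setting Tagln was 0.72 higher in FAC than in control (edgeR adjusted p = 0.0299) and -1.92 with Lip-1 against FAC (edgeR adjusted p = 0.00011). These values can therefore hold reads of its neighbours. Tagln2 was called in no comparison.

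The actin crosslinkers and the myosin II subunits, which bundle filaments and pull on them, included called and uncalled genes. The alpha-actinin Actn1 was 60.9, 73.9 and 38.2 CPM in control, 65.9, 73.1 and 83.5 CPM in FAC, 30.6, 35.0 and 42.9 CPM after Lip-1 and FAC, and 47.5, 54.4 and 44.4 CPM after MT and FAC. Lip-1+FAC lay below FAC without overlap (log2 fold change -1.04, SE 0.22, edgeR adjusted p = 0.00434), while the control libraries spanned most of the range, with control replicate 3 the lowest of them. Actn4, the more abundant alpha-actinin per length, fell by 0.19 in Lip-1+FAC against FAC (edgeR adjusted p = 0.0204), but not when FAC replicate 2 or Lip-1+FAC replicate 1 was left out (edgeR adjusted p = 0.0736 to 0.121). Of the regulatory light chains, Myl12a fell by 0.46 with Lip-1 and 0.54 with MT against FAC, the former call being lost without FAC replicate 3 (edgeR adjusted p = 0.0622), and Myl12a shares 33.6% of its transcript with Myl12b. Myl9, whose promoter holds a CArG box, was 19.1 ± 3.00 CPM in FAC against 10.95 ± 3.53 CPM in Lip-1+FAC (SD, n = 3; log2 fold change -0.80, SE 0.28, edgeR adjusted p = 0.0444), a call lost without any single library of the pair except Lip-1+FAC replicate 2 (edgeR adjusted p = 0.0688 to 0.123). The heavy chain Myh9 ranged from 199.6 to 419 CPM and the crosslinker filamin A (Flna) from 540.0 to 882 CPM over the 12 libraries, and neither was called in any of the 6 comparisons of the 12-library fit. Without control replicate 2, Flna (log2 fold change 0.42, edgeR adjusted p = 0.0234) and Actn1 (0.60, edgeR adjusted p = 0.0452) were higher in FAC than in control.

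Focal adhesion genes split 3 ways. Vinculin (Vcl), which links adhesion sites to actin, was 81.7, 92.4 and 71.1 CPM in control, 111, 111 and 96.9 CPM in FAC, 111, 116 and 128 CPM after Lip-1 and FAC, and 108, 118 and 109 CPM after MT and FAC. All 9 FAC-exposed libraries lay above the 3 control libraries, and the 3 exposed groups overlapped. Vcl rose by 0.38 in FAC (SE 0.09, edgeR adjusted p = 0.00228), 0.53 in Lip-1+FAC (edgeR adjusted p = 0.000190) and 0.45 in MT+FAC (edgeR adjusted p = 0.00180), each against control, and it was not called between exposed groups. Its promoter also holds a CArG box, and 39.8% of its transcript is shared with Ap3m1, a neighbour whose exons overlap its own. Zyxin (Zyx), a protein recruited to stress fibres under tension, was 451, 431 and 423 CPM in control, 555, 559 and 527 CPM in FAC, 334, 336 and 318 CPM after Lip-1 and FAC, and 362, 392 and 344 CPM after MT and FAC. FAC lay highest and both pretreated groups lowest, with control between and no overlap with either. Zyx rose by 0.33 in FAC (SE 0.06, edgeR adjusted p = 0.000168) and fell by 0.73 (SE 0.06, edgeR adjusted p = 2.91e-08) and 0.58 (SE 0.06, edgeR adjusted p = 4.92e-07) with Lip-1 and MT against FAC. Talin (Tln1), the integrin activator, was called in no comparison and ranged from 98.7 to 190.4 CPM. Vimentin (Vim), the intermediate filament of mesenchymal cells, was 69.5 ± 5.91 CPM in control against 80.6 ± 10.6 CPM in FAC (SD, n = 3; not called) and fell by 0.89 in Lip-1+FAC against FAC (edgeR adjusted p = 0.00631).

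Of the 4 tubulins, the microtubule subunits, Tubb6 had the largest changes against FAC. Tubb6 was 695, 614 and 679.5 CPM in control, 749, 826 and 853 CPM in FAC, 312, 376 and 367 CPM after Lip-1 and FAC, and 415, 531 and 470.2 CPM after MT and FAC. None of the 4 groups overlapped another, in the order FAC, control, MT+FAC, Lip-1+FAC. Its rise in FAC was 0.29 (SE 0.09, edgeR adjusted p = 0.0189), which was lost without FAC replicate 2, FAC replicate 3 or control replicate 2 (edgeR adjusted p = 0.0541 to 0.0722), and its fall against FAC was -1.20 with Lip-1 (edgeR adjusted p = 8.73e-08) and -0.78 with MT (edgeR adjusted p = 7.40e-06). Tuba1b was not called with FAC and fell by 0.67 with Lip-1 and 0.45 with MT against FAC, and 91.1% of its transcript lies in near-identical copies. Tubb2a, the most abundant tubulin of the 4 per length, changed by -0.05 and 0.12 against FAC, neither of them called. Tubb2b went the other way in value, at 9.39 ± 3.13 CPM in control and 13.8 ± 1.31 CPM in MT+FAC (SD, n = 3; log2 fold change 0.55, SE 0.18, edgeR adjusted p = 0.0389), a call lost without control replicate 1, MT+FAC replicate 2 or MT+FAC replicate 3 (edgeR adjusted p = 0.0812 to 0.138).

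Annexins bind membranes when calcium rises, and S100 proteins are small calcium sensors that include annexin partners. Of these 7 genes, 3 were higher in FAC than in control, where 17.5% of all genes were. Against FAC, 4 were lower in each pretreated group, where 19.2% (Lip-1) and 19.7% (MT) of all genes were, and 1, Anxa1, was higher in MT+FAC. One of the calls with MT, that of Anxa3 (-0.47, edgeR adjusted p = 0.0493), was lost when FAC replicate 2, FAC replicate 3, MT+FAC replicate 1 or MT+FAC replicate 3 was left out (edgeR adjusted p = 0.0546 to 0.149). Anxa2 was 919, 933 and 918 CPM in control, 1068, 1044 and 1223 CPM in FAC, 704, 733 and 764 CPM after Lip-1 and FAC, and 799, 955 and 927 CPM after MT and FAC. FAC lay above all other libraries and Lip-1+FAC below all others, and MT+FAC spanned control (log2 fold change 0.27, SE 0.07, edgeR adjusted p = 0.00573 for FAC against control). Its partner S100a10 was not called with FAC (0.04) and fell by 0.24 with Lip-1 and 0.30 with MT against FAC. The first of these calls was lost without FAC replicate 1, FAC replicate 3 or Lip-1+FAC replicate 3 (edgeR adjusted p = 0.0854 to 0.156) and the second without FAC replicate 3 or MT+FAC replicate 1 (edgeR adjusted p = 0.0515 to 0.0539). Anxa3 was 265, 277 and 374 CPM in FAC against 188, 232 and 215 CPM in control, and S100a6 was 43.0, 37.8 and 60.5 CPM against 28.9, 31.2 and 34.7 CPM. FAC replicate 3 was the highest library for both. Anxa3 rose by 0.53 (edgeR adjusted p = 0.0333), a call lost without FAC replicate 3, control replicate 1 or control replicate 3 (0.0764 to 0.101), and S100a6 by 0.57 (edgeR adjusted p = 0.0417), a call lost without any one library except FAC replicate 2 (0.0587 to 0.119). The most abundant annexin per length, Anxa5, was 1784 ± 99.0, 1792 ± 31.3, 1874 ± 16.6 and 1896 ± 70.8 CPM in control, FAC, Lip-1+FAC and MT+FAC (SD, n = 3), and its 6 log2 fold changes lay between 0.01 and 0.09, with standard errors of 0.05. Anxa1 had under 0.9 CPM in every library, and its call as higher in MT+FAC than in FAC (log2 fold change 1.09, edgeR adjusted p = 0.0491) was lost in 5 of 6 fits without a library (edgeR adjusted p = 0.0755 to 0.153, all but FAC replicate 3).

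Galectins bind sugars on glycoproteins, and the 2 listed here moved in opposite directions. Lgals3 was 87.8, 86.4 and 97.2 CPM in control, 142.01, 162 and 202 CPM in FAC, 58.3, 72.3 and 61.5 CPM after Lip-1 and FAC, and 63.9, 79.7 and 74.5 CPM after MT and FAC, with FAC above and both pretreated groups below control without overlap. It rose by 0.90 with FAC (SE 0.12, edgeR adjusted p = 0.000103) and fell by 1.39 and 1.21 with Lip-1 and MT against FAC (edgeR adjusted p = 2.18e-06 and 8.81e-06). Lgals1 (ENSMUSG00000068220, chromosome 15, 78926725 to 78930465) was 6.15, 7.47 and 8.33 CPM in control, 5.66, 5.23 and 7.95 CPM in FAC, 20.2, 14.05 and 12.1 CPM after Lip-1 and FAC, and 14.5, 12.04 and 18.4 CPM after MT and FAC. Control and FAC overlapped, and all 6 pretreated libraries lay above all 6 others. Against FAC, Lgals1 rose by 1.32 with Lip-1 (SE 0.22, edgeR adjusted p = 0.000219) and 1.26 with MT (SE 0.22, edgeR adjusted p = 0.000335).

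The matrix-linked genes divided in the same way. Spp1 (ENSMUSG00000029304, chromosome 5, 104435118 to 104441050), which encodes the secreted phosphoprotein osteopontin, was 34.8, 48.1 and 39.4 CPM in control, 40.4, 41.4 and 49.0 CPM in FAC, 111, 94.0 and 99.2 CPM after Lip-1 and FAC, and 96.4, 86.9 and 125 CPM after MT and FAC. The 6 pretreated libraries again lay above the 6 others, which overlapped. Spp1 rose by 1.22 with Lip-1 and 1.24 with MT against FAC (SE 0.14 and 0.14, edgeR adjusted p = 3.34e-05 and 3.53e-05), and by 1.31 and 1.33 against control. Thbs1, the secreted thrombospondin 1, was 32.3, 26.1 and 23.5 CPM in control, 72.2, 70.6 and 103 CPM in FAC, 5.79, 9.33 and 7.61 CPM after Lip-1 and FAC, and 10.7, 23.1 and 18.4 CPM after MT and FAC. FAC lay far above and both pretreated groups below the control libraries. Thbs1 rose by 1.59 with FAC (SE 0.28, edgeR adjusted p = 0.00167), and its change of -3.43 (SE 0.31) with Lip-1 against FAC is given as a description, because the gene had been singled out earlier for that size. Cd44, the hyaluronan receptor, was 4.15 ± 0.372 CPM in control against 6.65 ± 0.969 CPM in FAC (SD, n = 3), and the pretreated groups were at 4.23 ± 0.167 and 3.97 ± 1.30 CPM. It rose by 0.67 with FAC (edgeR adjusted p = 0.0150), a call lost without FAC replicate 3 or control replicate 1 (edgeR adjusted p = 0.0595 to 0.0609), and fell by 0.65 with Lip-1 against FAC, lost when FAC replicate 3 or Lip-1+FAC replicate 1 was left out (0.0540 to 0.0693). Its fall of 0.75 with MT was 0.48 without MT+FAC replicate 1 (edgeR adjusted p = 0.0366).

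The scaffold protein Akap12 (ENSMUSG00000038587, chromosome 10, 4266380 to 4359470), which anchors protein kinase A, the membrane protein Emp1 (ENSMUSG00000030208, chromosome 6, 135362545 to 135383173) and the transcription factor Sox9 (ENSMUSG00000000567, chromosome 11, 112782224 to 112787760), a regulator of biliary and progenitor cells, had the largest rises with FAC together with Thbs1. Akap12 was 68.5, 67.4 and 58.2 CPM in control, 200.5, 199.9 and 222 CPM in FAC, 17.7, 27.2 and 32.6 CPM after Lip-1 and FAC, and 32.6, 52.1 and 45.1 CPM after MT and FAC. Every FAC library lay far above the rest, and both pretreated groups lay below control. Akap12 rose by 1.68 with FAC (SE 0.21, edgeR adjusted p = 0.000195), fell by 2.26 with MT against FAC (SE 0.22, edgeR adjusted p = 3.04e-05), and was -3.01 (SE 0.23) with Lip-1 against FAC, a value by which it had been singled out. Sox9 was 19.7, 15.3 and 17.3 CPM in control, 49.2, 53.6 and 57.5 CPM in FAC, 12.2, 13.4 and 10.4 CPM after Lip-1 and FAC, and 14.97, 13.6 and 16.6 CPM after MT and FAC. FAC was the only group that stood clear above the others, Lip-1+FAC lay below control without overlap, and MT+FAC overlapped control. Sox9 had the smallest adjusted p of the members in FAC against control (log2 fold change 1.62, SE 0.11, edgeR adjusted p = 9.93e-09) and fell by 2.15 and 1.83 with Lip-1 and MT against FAC (edgeR adjusted p = 5.30e-10 and 4.09e-09). Emp1 was 4.49, 5.25 and 3.67 CPM in control, 17.3, 14.98 and 16.7 CPM in FAC, 2.69, 3.15 and 2.83 CPM after Lip-1 and FAC, and 6.50, 10.3 and 12.7 CPM after MT and FAC. No groups overlapped, and here MT+FAC lay between control and FAC. Emp1 rose by 1.86 with FAC (SE 0.20, edgeR adjusted p = 1.40e-06) and fell by 2.49 with Lip-1 and 0.74 with MT against FAC (edgeR adjusted p = 8.55e-08 and 0.00374).

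Whether the scavengers of lipid and of mitochondrial ROS left these genes at different levels was tested directly. In MT+FAC against Lip-1+FAC, 3 of 44 members were called higher and 0 lower by edgeR, where 0.465% of all genes were higher and 0.879% lower. The members' median log2 fold change was 0.18, against 0.0021 over all genes, and 34 of 44 values were above 0. The called members were Actg1 (0.44, SE 0.09, edgeR adjusted p = 0.0326), Tubb6 (0.43, SE 0.09, edgeR adjusted p = 0.0290) and Emp1 (1.75, SE 0.21), the last of which had been singled out for this difference and is given as a description. For Actg1 and Tubb6 every MT+FAC library lay above every Lip-1+FAC library. Calls in this comparison hung on single libraries. Actg1 was lost without any library of the pair except MT+FAC replicate 1 (edgeR adjusted p = 0.0722 to 0.158), and Tubb6 without Lip-1+FAC replicate 1, Lip-1+FAC replicate 3, MT+FAC replicate 2 or MT+FAC replicate 3 (edgeR adjusted p = 0.0518 to 0.133). Without MT+FAC replicate 1, which had the lowest MT+FAC level of Krt8, Krt18, Cnn2 and Thbs1, 9 members were called, the added ones being Krt8, Krt18, Cnn2, Tpm4, Anxa2 and Thbs1 (edgeR adjusted p = 0.00346 to 0.0456), and without each other library of the pair the count was 1 or 2. Over all 13535 genes tested, 63 were higher in the 12-library fit, 80 without MT+FAC replicate 1 and 13 to 53 without another library of the pair. DESeq2 called 9 members higher and 0 lower, and of all genes 214 higher and 251 lower, against 63 and 119 by edgeR. At an unadjusted edgeR p under 0.05 the number of members lower was 0.

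Against control, 10 of the 16 actin and myosin genes and 3 of the 4 tubulins were called lower in Lip-1+FAC, and fewer members were called in MT+FAC. In Lip-1+FAC, 24 of 44 members were lower and 3 higher than in control, where 14.8% of all genes were lower and 15.4% higher, with a median of -0.36 against -0.020 over all genes. In MT+FAC, 8 were lower and 5 higher, where 10.1% of all genes were lower and 9.71% higher, with a median of -0.22 against -0.00091. Vcl, Lgals1 and Spp1 were the 3 called higher in Lip-1+FAC, and Tubb2b and Emp1 joined them in MT+FAC. Emp1 was 1.12 above control in MT+FAC (edgeR adjusted p = 0.000883) and -0.63 from control in Lip-1+FAC (edgeR adjusted p = 0.0386), the latter call being lost without any one library except control replicate 3 (0.0696 to 0.161). The members lower in MT+FAC were Actg1, Tpm1, Cnn2, Cnn3, Zyx, Tuba1b, Tubb6 and S100a10. Their number was 3 without MT+FAC replicate 1 and 5 without MT+FAC replicate 3, control replicate 1 or control replicate 2. S100a10 was lost in all 6 fits that left out a library (edgeR adjusted p = 0.0529 to 0.184). Actg1 was lost without MT+FAC replicate 1, MT+FAC replicate 3, control replicate 1 or control replicate 2 (edgeR adjusted p = 0.0787 to 0.131), and Cnn2 without MT+FAC replicate 1, control replicate 1 or control replicate 2 (edgeR adjusted p = 0.0563 to 0.0669). Cnn3 and Tuba1b were lost without MT+FAC replicate 1 (edgeR adjusted p = 0.0564 and 0.0714) and Zyx without MT+FAC replicate 3 (edgeR adjusted p = 0.0625). In Lip-1+FAC against control, the calls of Actn1, Myl9, Vim and Tubb2a were each lost in 4 or 5 of 6 fits without a library, Actn1 and Tubb2a without Lip-1+FAC replicate 1 or 2, Myl9 and Vim without Lip-1+FAC replicate 1 or 3, all 4 without control replicate 2, Actn1 and Vim also without control replicate 1, and Myl9, Vim and Tubb2a also without control replicate 3. The edgeR adjusted p-values were then 0.106 to 0.137 for Actn1, 0.0862 to 0.111 for Myl9, 0.0562 to 0.0956 for Vim and 0.0789 to 0.105 for Tubb2a.

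**Figure D5:**
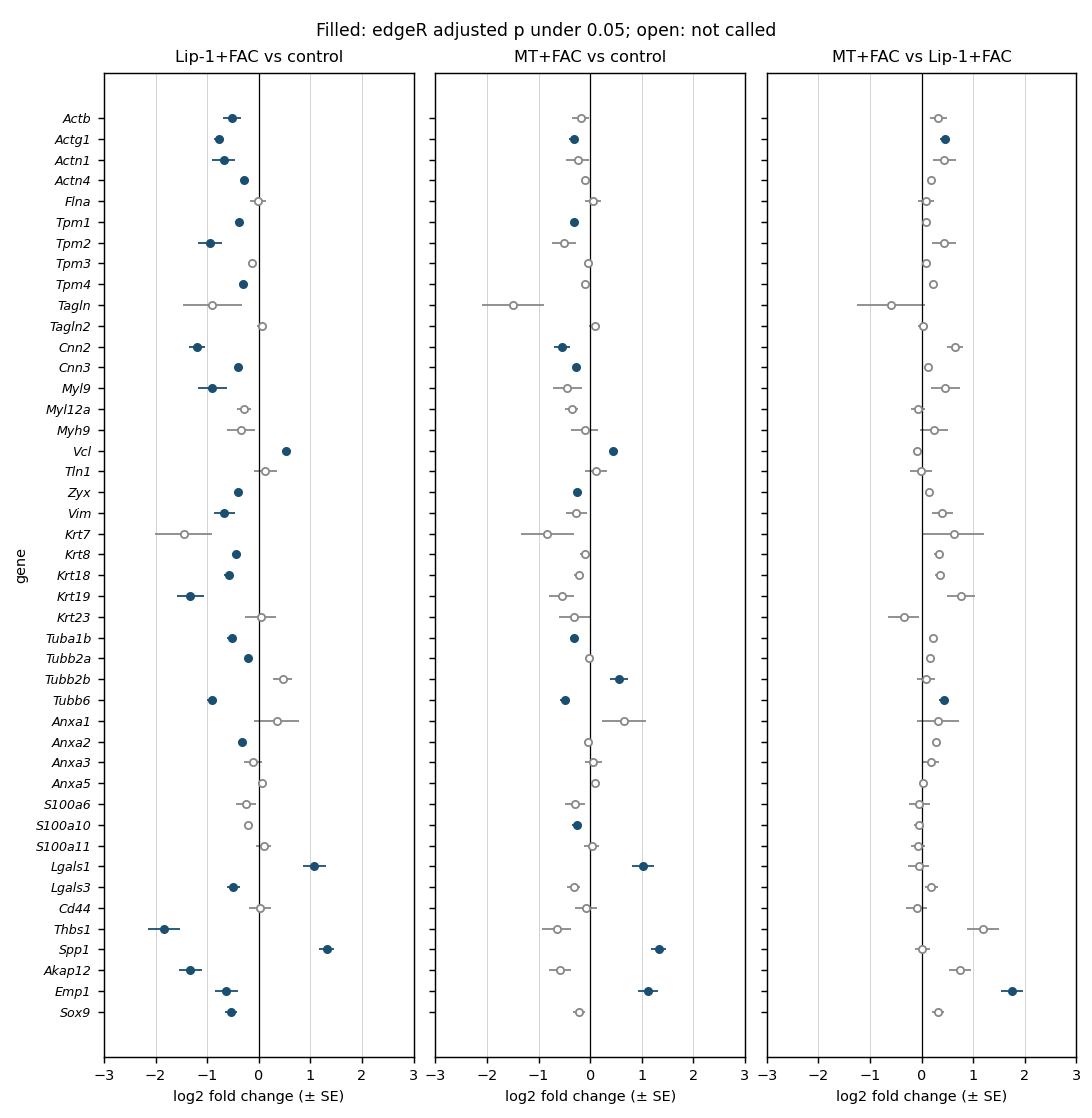
Log2 fold change with its standard error for each member in Lip-1+FAC against control, MT+FAC against control and MT+FAC against Lip-1+FAC, with filled points called at an edgeR adjusted p under 0.05. In the third panel only Actg1, Tubb6 and Emp1 are filled, all above 0.

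Among the members, 7 (Flna, Tpm3, Tagln2, Myh9, Tln1, Anxa5 and S100a11) were called in none of the 6 comparisons of the 12-library fit. The share of all genes called in none was not counted, so this number is a description only. Of the 7, Flna, Myh9 and Tln1 encode long structural proteins and were lowest of the control libraries in control replicate 3. Leaving out a library also brought in calls that the 12-library fit does not make. Besides Actb, Actn1 and Flna, given above, these were in FAC against control Tuba1b without FAC replicate 2 (0.22, edgeR adjusted p = 0.0415), Tubb2b without control replicate 3 (0.46, edgeR adjusted p = 0.0449) and Tubb2a, lower, without FAC replicate 3 or control replicate 1 (edgeR adjusted p = 0.0246 to 0.0358). In MT+FAC against FAC, Vim, Cnn3 and Tpm4 were lower without MT+FAC replicate 2 (edgeR adjusted p = 0.0218 to 0.0303), and Tubb2a was higher without MT+FAC replicate 1 (edgeR adjusted p = 0.0461). Against control, Krt7 was lower in Lip-1+FAC without control replicate 1 (edgeR adjusted p = 0.0401) and Tubb2b higher without control replicate 3 (edgeR adjusted p = 0.00488). In MT+FAC against control, Krt18 and Tpm2 were lower without MT+FAC replicate 2 (edgeR adjusted p = 0.0422 and 0.0467) and Actn1 without control replicate 3 (edgeR adjusted p = 0.0360).

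Genes of the same pathways that are not members were read from lists by pathway. The counts below stand beside the shares of all genes tested, which were 17.5% higher and 19.1% lower with FAC, 20.7% higher and 19.2% lower with Lip-1 against FAC, and 21.2% higher and 19.7% lower with MT against FAC. Among 18 tested targets of SRF and YAP, 8 were higher and 2 lower in FAC than in control, and 10 and 8 were lower, with 0 higher, in Lip-1+FAC and MT+FAC against FAC. Ccn2, a matrix-associated growth factor and YAP target, was 315, 304 and 345 CPM in control, 761, 749 and 710.2 CPM in FAC, 139, 156 and 140.2 CPM after Lip-1 and FAC, and 168, 263 and 236 CPM after MT and FAC, with no overlap between FAC and any other group (log2 fold change 1.20, SE 0.13, edgeR adjusted p = 2.68e-05 for FAC against control). Fosl1 and Egr1, which encode transcription factors and of which the former is an AP-1 subunit, rose by 3.15 and 2.24 with FAC, and the LIM protein gene Fhl2 fell by 2.44 with Lip-1 against FAC (edgeR adjusted p = 8.73e-07, 6.68e-09 and 2.56e-08). The gene of serum response factor, Srf, was 68.3, 57.5 and 61.7 CPM in control, 62.4, 72.5 and 66.8 CPM in FAC, 31.4, 34.5 and 30.9 CPM after Lip-1 and FAC, and 44.5, 49.0 and 43.5 CPM after MT and FAC. Srf was not called with FAC (log2 fold change 0.11, SE 0.08, edgeR adjusted p = 0.327) and fell in both pretreated groups (log2 fold change -1.06, SE 0.08, edgeR adjusted p = 3.48e-08 with Lip-1, and -0.56 with MT), and it was higher in MT+FAC than in Lip-1+FAC (log2 fold change 0.50, SE 0.08, edgeR adjusted p = 0.00346). Of 13 YAP pathway genes, 3 were higher and 2 lower with FAC, 2 higher and 2 lower with Lip-1, and 1 higher and 2 lower with MT against FAC.

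Of 22 genes of actin turnover, 3 were higher and 3 lower with FAC, and 12 and 11 were lower, with 3 higher, in Lip-1+FAC and MT+FAC against FAC. The actin monomer binders Tmsb10 (-1.30 with Lip-1, -1.40 with MT) and Tmsb4x (-1.03 and -0.84) were among the falls, and the myosin light chain kinase gene Mylk ran the opposite way, -1.32 with FAC and 1.40 and 1.20 with Lip-1 and MT against FAC. Among 19 integrin and adhesion genes, 8 were higher and 3 lower with FAC, and 10 and 8 were lower and 2 higher in each of the pretreated groups, for example the kinase gene Src (0.69, -1.51 and -1.07). Among 14 other keratin and desmosome genes, 5 were higher and 0 lower with FAC, and 6 and 4 were lower with Lip-1 and MT, led by Krt17 (1.27, -2.63 and -2.04). Of 7 other tubulins, 1 was higher and 2 lower with FAC, and 3 were lower with each scavenger, while 1 was higher with Lip-1 and 2 with MT. Tuba1a moved opposite to Tubb6 (-0.89, 0.58 and 0.72). Of 9 other annexins and S100 genes, 1 was higher and 2 lower with FAC, and 3 were higher and 4 lower with each scavenger. Of 21 matrix genes and regulators, 9 were higher and 3 lower with FAC, among them the cytokine gene Tgfb1 (1.58) and the urokinase receptor gene Plaur (1.14), and 8 and 7 were lower with Lip-1 and MT, with 3 higher in each. Values in this paragraph are log2 fold changes, and each value named was called by edgeR.

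Markers of other liver cells were read beside the members, because in bulk RNA fewer cells of a type and less RNA per cell cannot be told apart. Of 10 stellate cell and fibroblast markers 7 were detected, with Des, Lrat and Lum under the count rule, and the list summed to 21.4 to 29.3 CPM in control, 30.7 to 39.4 CPM in FAC, 15.1 to 18.4 CPM in Lip-1+FAC and 17.3 to 22.2 CPM in MT+FAC. That sum was higher in FAC than in control, where no actin or myosin gene and not Vim was called, and it was lower in both pretreated groups than in FAC, where 11 of the 16 with Vim (Lip-1) and 6 of the 16 without Vim (MT) were called lower. Of its genes Reln was higher with FAC (1.11, edgeR adjusted p = 4.54e-05) and lower with Lip-1 and MT against FAC (-1.83 and -1.61), Acta2 was lower with Lip-1 and MT against FAC (-1.25 and -0.91, edgeR adjusted p = 0.00307 and 0.0169), Dcn was lower with FAC (-0.60, edgeR adjusted p = 0.0381), and the collagens Col1a1, Col1a2 and Col3a1 were not called. Most of the rise of that sum with FAC was Reln, with means of 7.46 CPM in control and 16.1 CPM in FAC. Acta2 had means of 9.12 and 12.1 CPM, and those of Dcn, Pdgfrb and the collagens were lower in FAC than in control. Of 10 bile duct markers 8 were detected, with Cftr and Sctr under the rule. The 6 that are not members summed to 73.9 to 81.6 CPM in control, 79.5 to 86.0 CPM in FAC, 68.7 to 74.8 CPM in Lip-1+FAC and 74.0 to 76.3 CPM in MT+FAC. Among them Epcam rose with FAC as Krt19 and Sox9 did (log2 fold change 1.63, SE 0.55, edgeR adjusted p = 0.0280), at no more than 1.46 CPM. Of 9 markers of Kupffer cells and other leukocytes 6 were detected, Cd3e was at 0 in all libraries, Ptprc and Cd79a were under the rule, and the sum, most of it Cd68, was 219.9 to 252 CPM in control, 285 to 318 CPM in FAC, 113 to 143.2 CPM in Lip-1+FAC and 140.0 to 171 CPM in MT+FAC. Clec4f, a Kupffer cell marker near 1 CPM, went against that sum, with -1.08 in FAC against control and 1.16 in MT+FAC against FAC (edgeR adjusted p = 0.0456 and 0.0278). Endothelial markers (7 of 8 detected, Clec4g under the rule) summed to 34.7 to 37.4 CPM in control and FAC and 26.7 to 31.0 CPM in the pretreated groups. Most of that sum was Stab2, the endothelial marker called lower with Lip-1 and MT against FAC (-0.57 and -0.46), whereas Tek was called higher in both (0.97 and 0.90, edgeR adjusted p = 0.0288 and 0.0387). Of the mesothelial markers 0 of 5 were detected. The 6 proliferation genes summed to 2.74 to 4.08 CPM in control and FAC and 4.50 to 7.86 CPM in the pretreated groups. The hepatocyte markers summed to 19086.5 to 20731 CPM in control and FAC and 15609 to 17518 CPM in the pretreated groups. Single hepatocyte markers changed both ways with FAC by edgeR, Cps1 (-1.25), Tat (-0.88) and Fgb (-0.38) being lower and Apob (0.40) and Cyp2e1 (0.42) higher. With Lip-1 and MT against FAC, Cyp2e1 (-1.66 and -1.49), Ass1 (-0.70 and -0.59), Apoa1 (-0.66 and -0.57), Ttr (-0.47 and -0.49) and Alb (-0.24 and -0.21) were lower. Cps1 was higher in each (0.54 and 0.57), and Fgb was lower with Lip-1 only (-0.14). Apob, Hnf4a and Tat were not called against FAC. The part of these marker changes in the members' changes was not tested.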

How the data were processed

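RNA of primary mouse hepatocytes was measured in 12 libraries, 3 in each of 4 groups that the sample titles name. Starting from 10 ng of total RNA, cDNA was made with SMART-Seq v4 and sequenced as paired reads after Nextera XT preparation, per the labels' protocols, which mention no molecular identifiers. The deposited files hold raw counts per gene in the layout of STAR, and the build is GRCm38, per the submitters' processing notes; the versions and the annotation are not given in the sources used here. The unstranded column was used. Reads mapping to several places are counted for no gene in this layout, so genes with near-identical copies are undercounted. Lines that name no gene stayed out, and 75.8% to 81.2% of listed reads were assigned to genes.

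Names and coordinates come from GENCODE M21, in which 55227 of 55487 identifiers were found. Genes kept by filterByExpr (13535) were fitted with edgeR 4.0.16 in R 4.3.3, with TMM scaling, robust dispersions and 4 group means, and p-values are two-sided, with Benjamini-Hochberg adjustment over all 13535. Genes with an adjusted p under 0.05 are called higher or lower, and standard errors were derived from the F statistic. CPM are counts scaled to the TMM library size, and levels per kilobase divide by exonic length. The common biological coefficient of variation was 9.71%. The fit was also run on simulated counts, and the result of that run is not reported here. Copies were searched among annotated transcripts with blastn 2.17.0+, at 97% identity over at least 100 bases.

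The members, the lists of related genes and markers and the tests were chosen with earlier results of these data known. All members could be named. One related list and one marker gene are not reported here. Values per library are given for many, but not all, of the members that were most abundant in a role, changed most or were called in opposite directions. For example, Tubb2a, Anxa5, Krt7 and Cd44 are given without them. No member failed the count filter. Of each related list at most the 3 called genes with the largest change in a comparison are named. Alternatives were DESeq2 1.42.0, other scalings, filters and fits, thinning, the stranded columns summed, a replicate block and leaving out each library. Whether replicates are separate cultures is not stated, so p-values measure the spread between these samples, which may be technical.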

Additional observations from a re-analysis of the deposited data

Results flagged for a closer look

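Between the pretreated groups, 3 members differed by the edgeR test of MT+FAC against Lip-1+FAC, which sets the changes of the 2 groups from the same FAC libraries directly against each other. The log2 fold change was 1.75 for Emp1, 0.44 for Actg1 and 0.43 for Tubb6, each higher in MT+FAC. Emp1 had been singled out for this difference, so its value is a description. Of the 6 fits that left out a library of the pair, Actg1 was lost in 5 and Tubb6 in 4.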

How the results depend on the processing

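No log2 fold change that passed the test changed direction under any alternative run. Of the members' fold changes recomputed under alternatives, 3953 kept their side of the threshold, 87 gained a call and the rest lost one. Requiring a log2 fold change of at least 1 as well left 7 of 17 members higher in FAC against control, 12 of 30 lower in Lip-1+FAC against FAC, 8 of 24 lower in MT+FAC against FAC, 1 of 3 higher in MT+FAC against Lip-1+FAC, 4 of 24 lower in Lip-1+FAC against control, and in MT+FAC against control 3 of 5 higher and 0 of 8 lower. Among the 13535 genes tested, it left 379 of 2373, 685 of 2593, 562 of 2666 and 9 of 63 in the first 4 of these. It left 354 of 2008, 110 of 1314 and 156 of 1370 in the others. For MT+FAC against Lip-1+FAC, the number of members higher was 9 with DESeq2, 5 with a minimum mean CPM of 5, 10 with no filter on low counts and 5 with upper-quartile scaling. Over all genes tested, the number higher was 214 of 13535, 75 of 9138, 237 of 26555 and 85 of 13535 in these settings. The reported fit called 63 of 13535 higher. Upper-quartile scaling called 2 members lower in FAC against control, where the reported number is 0. Over all genes tested it called 2747 lower, where the reported number is 2587. Leaving out a library gave 11 to 16 members higher and 0 to 1 lower in FAC against control, 1 to 9 higher in MT+FAC against Lip-1+FAC and 3 to 9 lower in MT+FAC against control. Over all 13535 genes, those fits gave 1951 to 2277 higher and 2059 to 2542 lower, 13 to 80 higher, and 788 to 1288 lower, in that order. A fit left with 2 libraries in a group takes its spread from all groups. Fewer samples or a stricter rule enter some of these settings by construction, and for the others the cause was not tested.

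Libraries with the same replicate number did not deviate together. Of 18 such pairs 3 had a correlation over 0.1, and 4 of 12 libraries correlated best with their own number. The range was -0.25 to 0.16, against -0.20 to 0.22 for other pairs. These correlations showed no pairing by number, but they cannot exclude a shared preparation, which the labels do not state. With the number as a replicate block, 1 member was lower in FAC against control, 7 were higher in MT+FAC against Lip-1+FAC, and 12 were lower in MT+FAC against control, with other counts within 1 of those reported. Over all 13535 genes, the block gave 2541, 77 and 1292 in these places, and the reported fit gave 2587, 63 and 1370. Another 2 alternatives were chosen after seeing the data, leaving out Thbs1, Akap12 and Emp1 or keeping only members with 10 counts in every library, and neither moved a count by more than 1.5 times.

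Depth limits Tagln, Krt7 and Anxa1, whose counts stayed under 40 in every library. Intervals from replicates do not cover PCR duplication, since reads carry no molecular identifiers. Genes with near-identical copies or overlapping neighbours are uncertain in level. In the pretreated groups the effects of the scavenger and of FAC cannot be told apart from each other, since no group had a scavenger without FAC.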
